A study of Mus musculus with 6 samples.

Results

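The genes described here are those of DNA replication and its licensing, measured by RNA sequencing in sorted haematopoietic stem cells (HSCs) of lean and obese mice. The members were chosen by name, as 41 symbols of which 40 were found in the table of 23955 symbols. Cdc45l is an older name of Cdc45, so the 40 rows cover every gene named. All 40 had a mean of at least 1 TPM (an abundance corrected for transcript length and scaled to the same total in every library) and were among the 11931 genes tested. The members have different jobs, and 12 were placed in licensing, 4 in helicase activation, 15 in the fork, 4 in nucleotide supply and 5 among S-phase regulators.

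Both groups were C57BL/6 mice of 4 months. The control group was wild type (WT) littermates, and the other was homozygous for db, a germline mutation of the leptin receptor that makes mice obese. HSCs were sorted as CD150+ CD48- cells within the lineage-negative Sca-1+ c-Kit+ fraction of bone marrow, 20000 cells per library, in 3 experiments with 1 WT and 1 db/db library each, so n = 3 per group. The labels speak of a mouse for each library and do not otherwise give the number of animals. The mutation is in every cell of these mice, and the mice are also obese, so a change inside the stem cell and a response to the obese host cannot be told apart.

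Replication is prepared in G1, when the origin recognition complex (ORC) binds DNA and, with Cdc6 and Cdt1, loads the Mcm2 to Mcm7 helicase in an inactive form. At the start of S phase Cdc45 and the GINS complex join the helicase and the polymerases begin copying. E2F transcription factors switch on many of these genes as cells leave quiescence. Most adult HSCs rest in G0 and divide rarely, so transcripts of this kind in a sorted HSC pool come from resting and cycling cells together. In bulk RNA, fewer cells that express a gene and less RNA of it per cell cannot be told apart.

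The promoters of the licensing genes are shown first because E2F-type letters were more frequent in them than in the other classes. Windows from 250 bases before to 50 after each start were taken from RefSeq on GRCm38.p6, and 34 of the 40 members had an entry. They were searched on both strands for TTTCCCGC, TTTCGCGC, TTTGCCGC and TTTGGCGC, the 4 forms of an 8-base E2F site. Matches on opposite strands can overlap. A match stood in 12 of the 34 members (35.3%), in 430 of 8997 tested genes with an entry (4.78%) and in 2.26% of all 32851 windows. Some genes have more than 1 window, which gives them more chances of a match. By class, 7 of 11 licensing genes had a match, as did 4 of 13 fork genes, 1 of 4 S-phase regulators, 0 of 4 nucleotide genes and 0 of 2 helicase activation genes. Below are the 7 licensing genes and Lig1, each from 15 bases before its first match to 15 after its last where the window allows, on the strand of the gene, with the matches in capitals.

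Mcm3, chr1:20820263-20820308, minus strand: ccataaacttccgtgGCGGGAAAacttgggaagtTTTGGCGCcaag

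Mcm5, chr8:75109341-75109382, plus strand: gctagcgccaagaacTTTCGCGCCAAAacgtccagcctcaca

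Mcm6, chr1:128359730-128359830, minus strand: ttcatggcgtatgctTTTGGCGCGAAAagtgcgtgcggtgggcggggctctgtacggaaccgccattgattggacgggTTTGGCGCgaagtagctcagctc

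Mcm7, chr5:138171845-138172063, minus strand: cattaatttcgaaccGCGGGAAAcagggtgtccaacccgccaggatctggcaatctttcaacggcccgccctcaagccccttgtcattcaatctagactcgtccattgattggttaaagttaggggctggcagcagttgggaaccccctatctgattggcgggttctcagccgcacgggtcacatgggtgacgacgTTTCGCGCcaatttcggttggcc

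Cdc6, chr11:98907998-98908035, plus strand: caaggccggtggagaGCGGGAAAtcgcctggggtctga

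Cdt1, chr8:122568032-122568064, plus strand: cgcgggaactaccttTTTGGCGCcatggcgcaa

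Orc3, chr4:34614961-34614998, minus strand: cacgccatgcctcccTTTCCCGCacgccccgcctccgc

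Lig1, chr7:13278837-13278874, plus strand: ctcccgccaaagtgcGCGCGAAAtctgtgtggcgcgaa

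Within the helicase, 4 of the 5 Mcm2 to Mcm7 genes with a window had a match, in Mcm5 and Mcm6 as a forward and a reverse match that overlap by 4 bases. The Mcm2 window had none of these letters, and Mcm4 had no entry. A match is a description of the letters, and binding by E2F was not measured.

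**Figure D1:**
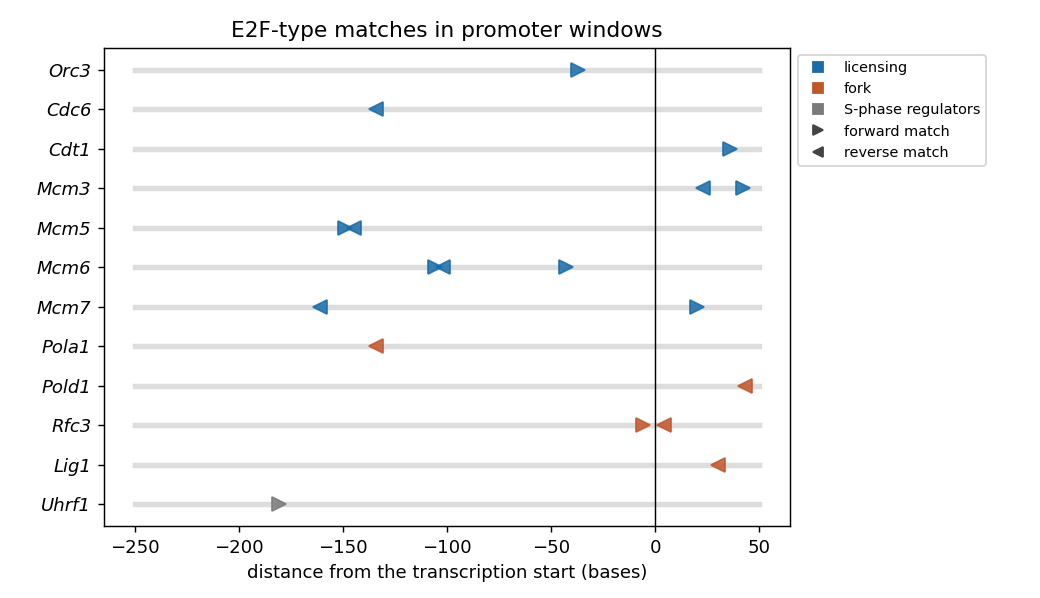
Position of each 8-base E2F-type match in the promoter windows of the 12 members that hold one. The horizontal axis is the distance from the transcription start in bases, grey bars span the window, triangles point right for a forward and left for a reverse match, and colours give the class. Licensing genes fill the upper 7 rows, with matches on both sides of the start.

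Facts of the whole series that bear on these genes are few. Depth per library is unknown, since TPM keeps none. Lepr, the mutated gene, was listed at 2.34, 2.93 and 2.79 TPM in WT and at 1.51, 2.44 and 2.04 TPM in db/db cells. Its total does not check the genotype, because the db mutation alters the splicing of 1 isoform. Stem cell markers of the fixed list were all present, at a summed 1290 to 2231 TPM in WT against 1876 to 2145 TPM in db/db libraries. The T cell genes Cd3e and Cd3g and the B cell gene Ebf1 were at 0 in every library, and Cd3d was at 0 to 0.75 TPM. Of the same B cell list, Cd79b was at 60.9, 42.5 and 32.7 TPM in WT and at 59.9, 38.8 and 28.8 TPM in db/db. Granulocyte markers summed to 4183, 170 and 243 TPM in the WT libraries and to 3370, 1278 and 1226 TPM in db/db. Replicate 1, of experiment 1, was thus the highest in both groups, and by more in WT. Median-of-ratios size factors, a measure of the typical TPM of a gene in a library, were 0.914, 0.815 and 1.14 in WT against 0.915, 1.13 and 1.23 in db/db. The fitted log2 fold changes had a median of 0.18 over the tested genes, and values relative to that median are given beside the fitted ones.

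In these HSCs the replication genes were well above the typical transcript. Their median level was 46.8 TPM against 15.8 TPM over all genes tested, and 35 of the 40 lay above that value. Pcna, the sliding clamp that holds polymerases on DNA, had the highest level of the 40 in each of the 6 libraries, and its mean stood at the 98.4th percentile of tested genes. Ccne2, the cyclin that drives entry into S phase with Cdk2, had the lowest in each library, from 2.02 to 7.82 TPM. The 40 genes made up 0.206%, 0.256% and 0.273% of the TPM in WT replicates 1, 2 and 3, against 0.256%, 0.303% and 0.340% in their db/db partners. The db/db share was the higher in each experiment, and the groups overlapped, with WT replicates 2 and 3 both above db/db replicate 1. After median-of-ratios scaling the sums were 2251, 3141 and 2397 in WT against 2796, 2675 and 2764 in db/db, with WT replicate 2 above every db/db library.

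**Figure D2:**
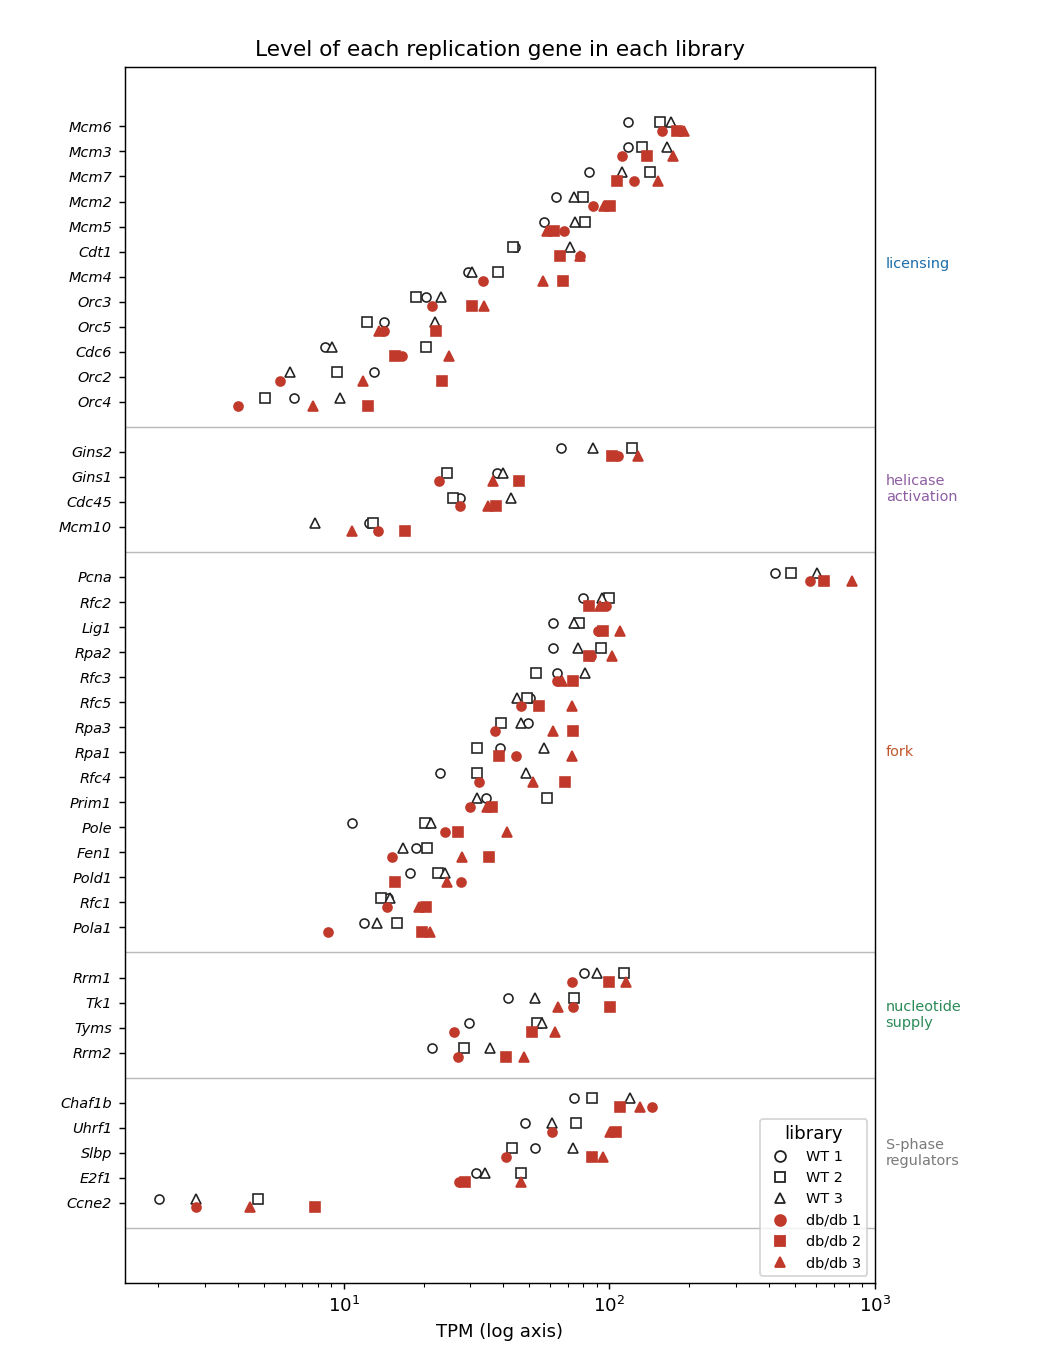
TPM of each of the 40 genes in each of the 6 libraries, on a log axis, grouped by class and ordered by mean level. Open symbols are WT and filled symbols db/db, with a circle, square and triangle for experiments 1, 2 and 3; Pcna lies far to the right and Ccne2 far to the left, and the groups overlap for nearly every gene.

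Subunits of 1 complex differed in TPM, and among the members of each of 4 complexes the same gene was highest in all 6 libraries. A measurement bias particular to a gene would recur in every library, and its part in this order was not tested. Among Mcm2 to Mcm7, which form a hexamer, Mcm6 was highest in all 6 libraries and Mcm4 lowest in 5 of the 6, with a ratio of highest to lowest from 2.92 to 5.63. In WT the levels ran from Mcm6 at 148 ± 27.7 TPM and Mcm3 at 139 ± 24.5 TPM through Mcm7 at 113 ± 29.3 TPM to Mcm2 at 72.3 ± 8.41 TPM, Mcm5 at 70.8 ± 12.4 TPM and Mcm4 at 32.6 ± 4.72 TPM (SD, n = 3 each). Mcm6, Mcm3 and Mcm7 lay within each other's spread, as did Mcm2 and Mcm5, and Mcm4 lay below all of them. In replication factor C, which loads Pcna, Rfc2 was highest and Rfc1, the large subunit, lowest in all 6 libraries, at 91.3 ± 10.2 and 14.5 ± 0.588 TPM in WT. Of the single-strand binding protein RPA, Rpa2 was highest in all 6 libraries, at 1.58 to 2.93 times the lowest, which was Rpa1 in 3 libraries and Rpa3 in the other 3. Of ORC, the members Orc2 to Orc5 were low. Among these Orc3 was highest in all 6 libraries, at 20.8 ± 2.32 TPM in WT, with Orc4 at 7.08 ± 2.38 TPM (SD, n = 3 each). Orc1 and Orc6 are not members, and were at 2.96 ± 1.99 and 21.3 ± 2.44 TPM in WT (SD, n = 3 each). Orc6 was above Orc3 in WT replicate 1, at 23.1 against 20.4 TPM, and in every db/db library.

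Across all 40 genes, db/db HSCs did not differ from WT HSCs beyond the spread between libraries. In limma with Benjamini-Hochberg adjustment over 11931 genes, 0 of the 40 passed an adjusted p under 0.05 in either direction. Over all genes 4 passed as higher (0.0335%) and 0 as lower (0%). At an unadjusted p under 0.05, 1 of the 40 was higher, against 4.1% of all genes, while no member was lower, against 1.25%. With the experiment as a replicate block 4 of the 40 were higher at that level (Mcm4, Pole, Pcna and Uhrf1), against 5.41% of all genes, and 0 passed after adjustment.

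Fitted fold changes were small and mostly above 0. On the TPM scale 36 of the 40 were positive, a direction that 68.1% of all genes shared. After median-of-ratios scaling or quantile normalization 26 of the 40 were positive. The all-gene median was then near 0, at 0.003 and 0.012, so the share of 68.1% does not apply there. On the TPM scale the members' median log2 fold change was 0.29, 0.11 relative to all genes. There 26 of the 40 exceeded the all-gene median, and 26 did under either scaling. The relative median of 0.11 became 0.01 without WT replicate 3 and 0.25 without WT replicate 2. Within experiments 1, 2 and 3 it was 0.19, -0.06 and 0.28. In total 16 of the 40 (40%) were higher in db/db in all 3 experiments, against 22.7% of all genes, and 0 were lower in all 3, against 7.55%. After median-of-ratios scaling 6 were higher in all 3 and 2 lower, against 14.1% and 13.8% of all genes, and after quantile normalization 9 and 0, against 14.7% and 13.9%. Groups did not overlap for 3 members (Pole, Lig1 and Mcm2), all higher in db/db, against 7.85% of all genes. After either scaling all 3 overlapped, and the 1 member of 40 without overlap was Orc3, higher in db/db. The share of all genes without overlap in that direction was 5.67% after median-of-ratios scaling and 5.57% after quantile normalization.

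**Figure D3:**
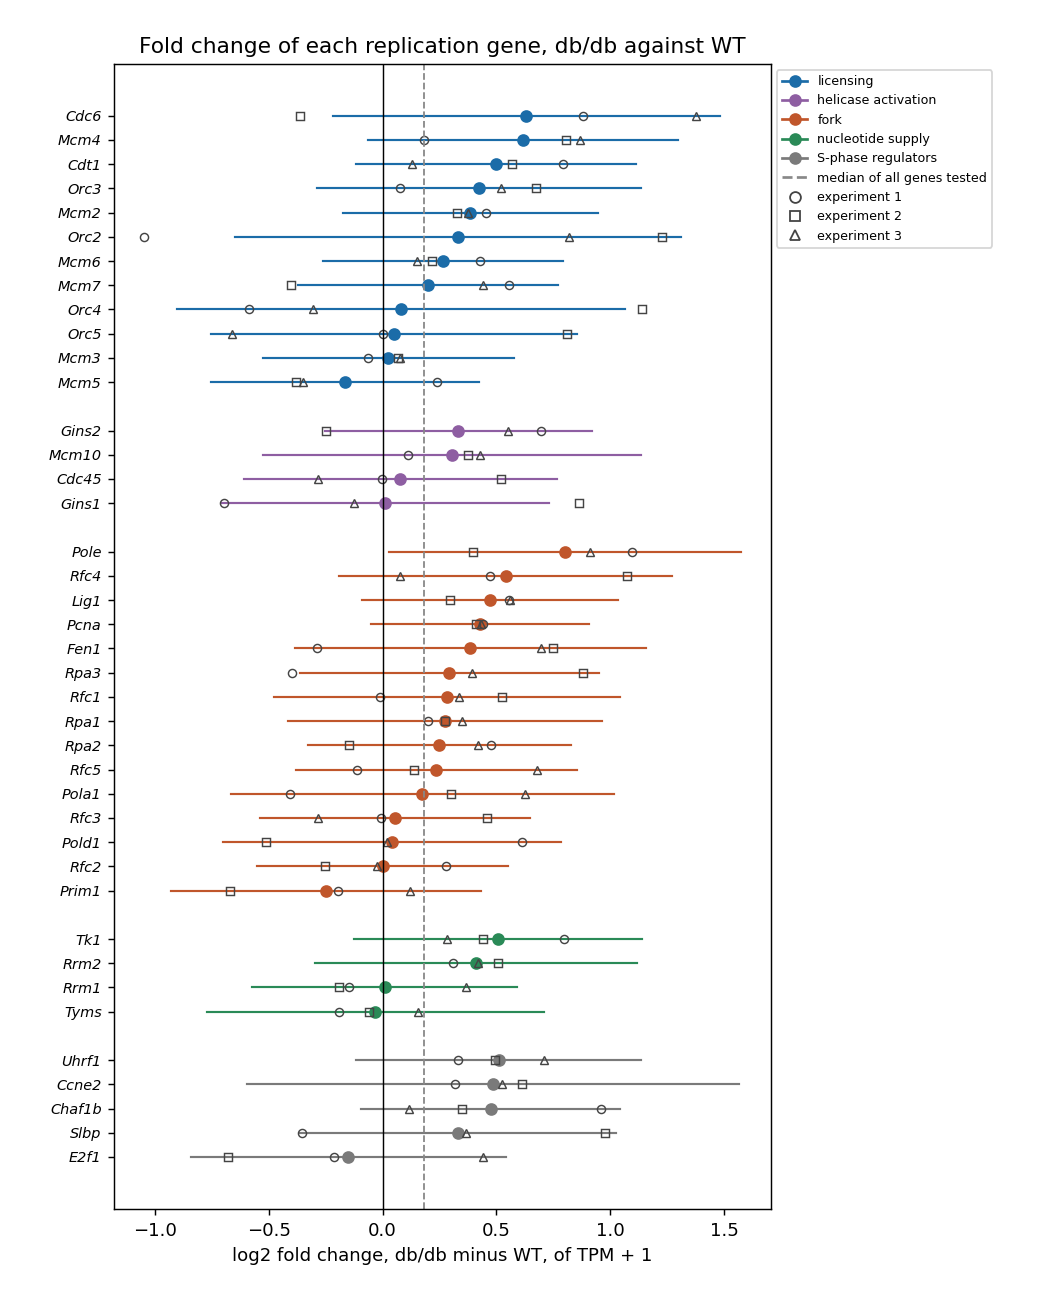
Log2 fold change of each gene, db/db minus WT, on log2(TPM + 1), ordered by size within each class. Filled points and bars are the limma estimate and its 95% interval, open symbols are the differences within experiments 1, 2 and 3, and the dashed line marks the median of all genes at 0.18; the interval of Pole alone leaves out 0.

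In the licensing class 0 of 12 genes passed, and 5 were higher in db/db in all 3 experiments on the TPM scale, but 3 after median-of-ratios scaling. Cdc6, which recruits the helicase to ORC, was at 8.52, 20.4 and 9.02 TPM in WT and at 16.5, 15.7 and 25.1 TPM in db/db cells. WT replicate 2 was above 2 of the db/db libraries, so the groups overlapped. The log2 fold change was 0.63 (SE 0.41, limma adjusted p = 0.919). Cdt1, its partner in loading, was at 44.3, 43.6 and 71.1 TPM in WT and at 77.4, 65.3 and 77.9 TPM in db/db. Only WT replicate 3 reached into the db/db range, and the log2 fold change was 0.50 (95% interval -0.12 to 1.11). Mcm4 was at 29.4, 38.0 and 30.4 TPM in WT and at 33.5, 67.3 and 56.3 TPM in db/db. It was higher in each experiment, with db/db replicate 1 inside the WT range, and the log2 fold change was 0.62 (SE 0.33, limma adjusted p = 0.919).

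The remaining helicase subunits did not move as a block. Mcm6, the most abundant, was at 117, 156 and 171 TPM in WT and at 158, 181 and 191 TPM in db/db, a log2 fold change of 0.27 (SE 0.25). Mcm2, one of the 3 members whose groups did not overlap, was at 63.3, 80.0 and 73.7 TPM in WT and at 87.2, 101 and 95.8 TPM in db/db. After median-of-ratios scaling its values were 69.3, 98.1 and 64.8 in WT against 95.3, 88.8 and 78.0 in db/db, and WT replicate 2 was then the highest library. The fold change of Mcm3 was 0.03, with an interval of -0.53 to 0.58, that of Mcm7 0.20, and that of Mcm5 -0.16, lower in experiments 2 and 3 and higher in experiment 1.

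The ORC subunits among the members and the helicase varied in different experiments. The median difference of Orc2, Orc3, Orc4 and Orc5, which mark origins through the cell cycle, was -0.29, 0.98 and 0.11 in experiments 1, 2 and 3. That of Mcm2 to Mcm7 was 0.33, 0.14 and 0.26. Relative to the median of all genes in the same experiment, ORC was at -0.29, 0.53 and 0.01 and the helicase at 0.33, -0.31 and 0.17, so the helicase was below that median in experiment 2. Orc2, for example, was at 13.0, 9.48 and 6.27 TPM in WT and at 5.77, 23.5 and 11.8 TPM in db/db, so both its lowest and its highest library were db/db. Over all libraries the ORC median was 0.03 relative to all genes, and leaving out db/db replicate 2 gave -0.29 and leaving out db/db replicate 1 gave 0.22. Orc1 and Orc6 are not members and are not in these medians. Their differences in experiments 1, 2 and 3 were 0.76, 0.22 and -0.74 for Orc1 and 0.33, 1.08 and 0.67 for Orc6. Orc3 was at 20.4, 18.7 and 23.3 TPM in WT and at 21.5, 30.4 and 33.8 TPM in db/db. After median-of-ratios scaling it was 22.3, 22.9 and 20.5 in WT against 23.5, 26.9 and 27.5 in db/db, without overlap by a narrow margin.

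Helicase activation genes had a class median of 0.19, 0.01 relative to all genes, and the relative value was -0.08 to 0.11 when each library was left out in turn. Gins2, a GINS subunit, was at 66.1, 122 and 87.3 TPM in WT and at 108, 102 and 128 TPM in db/db, a log2 fold change of 0.33 (SE 0.28). Mcm10, which helps start the fork, was at 12.4, 12.9 and 7.78 TPM in WT and at 13.5, 17.1 and 10.8 TPM in db/db. It was higher in each experiment with overlap between the groups, but no longer in each experiment after either scaling. Cdc45 was at 27.5, 25.8 and 42.8 TPM in WT and at 27.5, 37.4 and 35.0 TPM in db/db, with the highest library in WT. The fold change of Gins1 was 0.01.

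Among fork genes the values of Pole stood out. Pole, the catalytic subunit of the leading-strand polymerase epsilon, was at 10.8, 20.3 and 21.4 TPM in WT and at 24.2, 27.0 and 41.1 TPM in db/db cells, so every db/db library was above every WT library. The log2 fold change was 0.80 (SE 0.37, 95% interval 0.03 to 1.57), the largest of the 40, and it did not pass in limma (unadjusted p = 0.043, adjusted p = 0.919). After median-of-ratios scaling Pole was 11.8, 24.9 and 18.8 in WT against 26.4, 23.9 and 33.5 in db/db, with db/db below WT in experiment 2. Pold1 and Pola1, the catalytic subunits of polymerases delta and alpha, had fold changes of 0.04 and 0.17, and Prim1, the primase, had -0.25.

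Pcna was at 420, 483 and 609 TPM in WT and at 571, 643 and 822 TPM in db/db cells. The differences within experiments were 0.44, 0.41 and 0.43, nearly equal, while WT replicate 3 overlapped with db/db replicate 1. With an SE of 0.23 the log2 fold change of 0.43 stayed short of the limma threshold, either without the block (adjusted p = 0.919) or with it (adjusted p = 0.668). Lig1, the ligase that seals Okazaki fragments, was at 61.4, 77.1 and 74.0 TPM in WT and at 90.8, 95.0 and 110 TPM in db/db, without overlap. Its log2 fold change of 0.47 had an SE of 0.27 (adjusted p in limma 0.919). After median-of-ratios scaling both genes were lower in db/db than in WT in experiment 2, Pcna at 568 against 593 and Lig1 at 84.0 against 94.6, and higher in experiments 1 and 3. Fen1, the flap nuclease that acts before Lig1, was at 18.8, 20.6 and 16.8 TPM in WT and at 15.2, 35.3 and 27.8 TPM in db/db. The 5 clamp loader genes had fold changes from 0.00 for Rfc2 to 0.54 for Rfc4, and the 3 RPA genes from 0.25 for Rpa2 to 0.29 for Rpa3.

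The licensing genes and the genes of fork and nucleotide supply had similar medians on the TPM scale. The median log2 fold change was 0.30 over the 12 licensing genes and 0.27 over the 19 fork and nucleotide genes, a difference of 0.02. Within experiments 1, 2 and 3 the difference was 0.01, 0.15 and -0.10, so its sign varied. It lay between -0.03, without WT replicate 1, and 0.10, without WT replicate 2, when each library was left out in turn. The share of members higher in all 3 experiments was 41.7% in licensing and 36.8% in fork and nucleotide supply, against 22.7% of all genes. After median-of-ratios scaling these were Cdt1, Mcm4 and Orc3 of the 12 and Rrm2 alone of the 19, against 14.1% of all genes. After quantile normalization they were again Cdt1, Mcm4 and Orc3 of the 12, and Pcna, Rrm2 and Tk1 of the 19, against 14.7% of all genes.

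Nucleotide supply split into 2 genes with positive and 2 with flat values. Tk1, thymidine kinase of the salvage route, was at 41.5, 74.0 and 52.7 TPM in WT and at 72.9, 101 and 64.3 TPM in db/db. It was higher in each experiment, though not after median-of-ratios scaling, with a log2 fold change of 0.51 (SE 0.30). Rrm2, the S-phase subunit of ribonucleotide reductase, was at 21.6, 28.5 and 35.7 TPM in WT and at 26.9, 40.9 and 48.0 TPM in db/db, also higher in each experiment. Its partner Rrm1 was at 80.4, 114 and 89.8 TPM in WT and at 72.6, 99.6 and 116 TPM in db/db, and Tyms, thymidylate synthase, at 29.8, 53.3 and 55.9 TPM and at 26.0, 51.0 and 62.3 TPM. The fold changes of Rrm1 and Tyms were 0.01 and -0.03, with intervals of -0.57 to 0.59 and -0.77 to 0.71. None of the 4 passed in limma, and a difference between the genes was not tested.

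The S-phase regulators had a class median of 0.47, or 0.29 relative to all genes. Uhrf1, which guides DNA methylation to new strands, was at 48.4, 75.2 and 61.0 TPM in WT and at 61.0, 106 and 100 TPM in db/db, with 0.51 as its log2 fold change (SE 0.30, adjusted p in limma 0.919). Chaf1b, a subunit of the histone chaperone CAF-1, was at 73.9, 86.0 and 120 TPM in WT and at 145, 110 and 130 TPM in db/db. Both were higher in each experiment, and both groups overlapped. After median-of-ratios scaling Uhrf1 was still higher in each experiment and Chaf1b was not, while after quantile normalization both were. Slbp, which binds replication-dependent histone mRNAs, was at 52.8, 43.2 and 73.4 TPM in WT and at 41.0, 86.2 and 95.1 TPM in db/db. E2f1 itself had a fold change of -0.15, lower in experiments 1 and 2, while Ccne2 had 0.49. Without db/db replicate 2 the class median was 0.03 relative to all genes, and without WT replicate 1 it was 0.14. The 12 members with an E2F-type match had a median fold change of 0.23, and the 22 with a window but no match had 0.29.

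**Figure D4:**
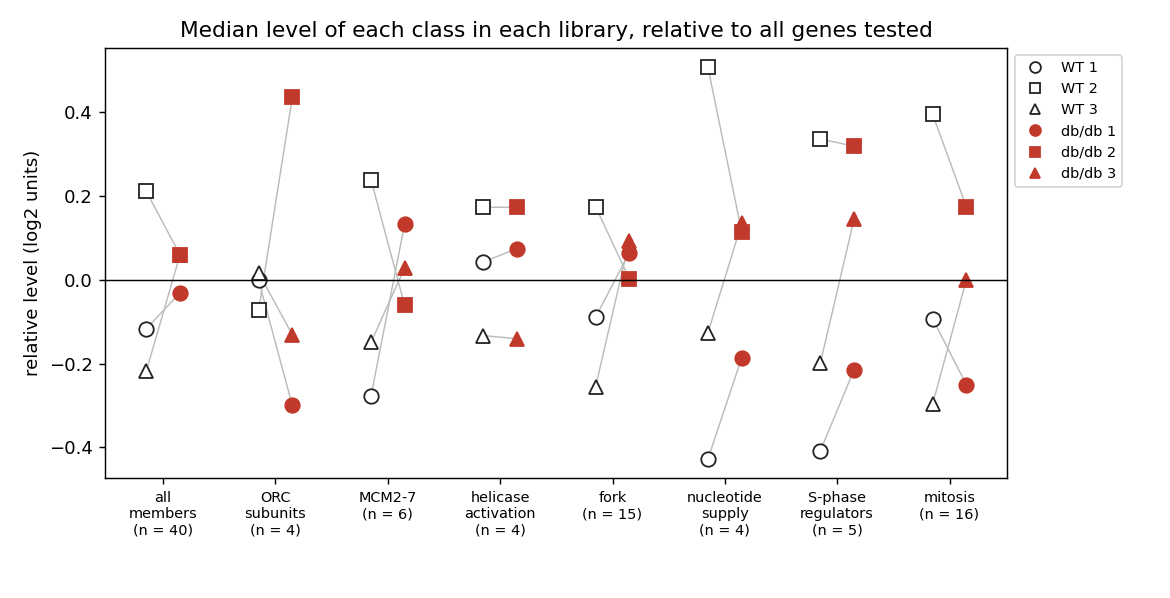
Median level of each class in each library, as deviations of log2(TPM + 1) from each gene's mean, minus the same over all genes tested, in log2 units. Open symbols are WT, filled symbols db/db, and grey lines join the libraries of an experiment; over all 40 members WT replicate 2 was highest at 0.21 and WT replicate 3 lowest at -0.22, with the db/db libraries between -0.03 and 0.06.

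Read by library, the range over all members was wider within WT than within db/db, which did not hold for every class. Over all members the relative level was -0.12, 0.21 and -0.22 in WT against -0.03, 0.06 and 0.06 in db/db. WT replicate 2 was the highest of the WT libraries for the helicase, nucleotide, fork and regulator genes, at 0.24, 0.51, 0.17 and 0.34. For ORC it was the lowest of them, and the range was wider within db/db. The ORC values were -0.002, -0.07 and 0.02 in WT against -0.30, 0.43 and -0.13 in db/db. Helicase activation had similar ranges, at 0.04, 0.17 and -0.13 in WT against 0.07, 0.17 and -0.14 in db/db. WT replicate 2 also had the lowest size factor. Of the WT libraries it was not the one with high granulocyte markers. Progenitor markers outside the HSC gate summed to 589, 552 and 417 TPM in WT against 737, 1047 and 511 TPM in db/db. Summed erythroid markers were 93.4 to 195 TPM in WT against 309 to 1412 TPM in db/db. The part of these markers in the members' values was not tested.

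Genes of mitosis gave a comparison for the cycle as a whole. Of 16 measured, 0 passed and 0 had an unadjusted p under 0.05 in limma, with a median log2 fold change of 0.10, -0.09 relative to all genes. Mki67, a marker of cycling cells, was 16.4 ± 8.55 TPM in WT against 21.0 ± 10.2 TPM in db/db cells (SD, n = 3 each). The relative level of the list in the libraries was -0.09, 0.39 and -0.30 in WT against -0.25, 0.17 and 0.00 in db/db, so WT replicate 2 was highest here too. A difference between replication and mitosis genes was not tested.

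Other genes of the pathway gave the same absence of calls. Of 48 listed replication genes outside the members, 0 passed in limma. At an unadjusted p under 0.05 there were 3 in the higher direction (4.1% of all genes) and 0 in the lower, and their median of 0.17 was -0.01 relative to all genes. Tipin, a fork protection factor, was at 48.3, 60.1 and 63.4 TPM in WT and at 73.9, 122 and 106 TPM in db/db, without overlap, with 0.78 as its log2 fold change (SE 0.29, adjusted p in limma 0.795). Dck, which salvages deoxycytidine, was at 17.5, 11.6 and 17.5 TPM in WT and at 20.4, 40.8 and 29.3 TPM in db/db, a log2 fold change of 0.88 (SE 0.37, adjusted p = 0.899). The 3rd was Orc6, named because the count is small, at 21.3 ± 2.44 TPM in WT against 35.3 ± 5.59 TPM in db/db (SD, n = 3 each).

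What these data could show is limited by the libraries. The SE of the fold change ran from 0.23 to 0.52 over the 40 genes, and for Mcm6 the 95% interval was -0.26 to 0.79. Exons of 14 members overlap a gene on the opposite strand in a later annotation, among them Pole, Lig1 and Mcm7, and 2 overlap a gene on the same strand. The libraries were stranded, but whether counting used the strand was not given in the sources used here, so reads shared with those genes cannot be told apart.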

How the data were processed

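Amplified poly(A) RNA of sorted HSCs was sequenced as stranded, paired reads of 75 nucleotides, per the labels' protocols. The authors deposited TPM values per gene symbol; the submitters' processing notes name RSEM, Bowtie2 and mm9. Their versions, settings and gene models are not given in the sources used here. Each column sums to 1000000, which keeps no depth, so no counting interval could be given.

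Only genes averaging 1 TPM or more (11931) were tested, on log2(TPM + 1), in limma 3.58.1 under R 4.3.3. The model held genotype alone, with a trended empirical Bayes prior (17.7 prior, 4 residual degrees of freedom), two-sided, Benjamini-Hochberg adjusted, with a threshold of 0.05. The pseudocount of 1 understates the change of low genes. The fit was tested on simulated data. The members and lists were chosen with earlier results of these data known. Named with values in every library were, per class, members that passed, up to 3 of smallest p and the most abundant, and of other pathway genes the 2 of smallest p; Mcm2, Orc2, Orc3 and Fen1 were added after their values were seen. Alternatives were pseudocounts, filters, scalings, moderation, array weights, a replicate block, each library left out, and an adjusted p under 0.1. Counts of members under each scaling were added after seeing the data.

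Pairing comes from the labels, in which an experiment number marks a WT library and its db/db partner. Deviations from the group means correlated across genes at 0.04, 0.01 and 0.16 within experiments and at -0.12 to 0.08 between them. Across the members alone they correlated at -0.25, -0.17 and 0.16 within experiments and at -0.25 to 0.41 between them. No pair of libraries shared identical values for more than 0.654% of tested genes. The labels name independent experiments and do not give the number of animals, so p-values measure the spread between these libraries.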

Additional observations from a re-analysis of the deposited data

How the results depend on the processing

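No member passed in either direction under any of the alternatives, and the lowest adjusted p of a member was 0.17 (Pole, with array weights, where 11 members were higher at an unadjusted p under 0.05, against 11.5% of all genes). Array weights gave WT replicate 1 a weight of 2.63 and the others 0.573 to 1.16. The number of members above the median of all genes ran from 22 to 30 over 16 alternatives, and the number with a positive fold change from 26 to 38. The relative member median was 0.11 as reported and 0.01 to 0.25 when each library was left out in turn. Under every alternative it moved from 0.11 by less than 0.16, the SD within groups of the members' relative level per library. The difference between licensing and fork and nucleotide medians was -0.0308 (without WT replicate 1) to 0.0994 (WT replicate 2) when each library was left out, and 0.0933 in the run lacking db/db replicate 3.

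Over all genes, 4 were higher and 0 lower. The count of higher genes was 0 without a filter and 0 without the trend, 1 with median-of-ratios scaling, 1 with quantile normalization, 1 with the robust prior and 12 with array weights, and 0 to 15 when each library was left out. Leaving out WT replicate 1 gave 15, WT replicate 3 gave 2 and db/db replicate 2 gave 0. The count of lower genes was 1 at a mean of at least 5 TPM, 4 with array weights, 2 with the replicate block, 1 at an adjusted p under 0.1, and 0 to 1 when each library was left out (1 on leaving out WT replicate 1, WT replicate 3 or db/db replicate 3). The cause of these shifts was not tested. The replicate block, with the pairing by experiment, changed no call of a member.

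Of 323 values of 19 named genes under alternatives, 15 reversed, in 3 genes near 0. The other 308 kept their direction and their side of the threshold. The filters, the moderation settings, the replicate block and the threshold of 0.1 cannot change a fold change, so no value could reverse under them. Mcm2, Orc2, Orc3 and Fen1 are not among the 19. Over the alternatives Orc2, at 0.33 as reported, ran from -0.13 to 0.79, while Mcm2, Orc3 and Fen1 stayed positive. With median-of-ratios scaling and quantile normalization the log2 fold change of Cdc45 was -0.11 and -0.11, and that of Rrm1 -0.18 and -0.14. With each library left out in turn, Cdc45 was at -0.054 to 0.30, Rrm1 at -0.14 to 0.20 and Tyms at -0.32 to 0.33, and Tyms was 0.38 with array weights. With no depth in the file, counting error could not be set beside these values, and low genes such as Ccne2 are the least certain.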

Other observations

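A CCAAT box, the site of the factor NF-Y, was searched as CCAAT on both strands in the same promoter windows. It stood in 21 of the 34 members with an entry (61.8%) and in 43% of tested genes with one. All 5 windowed genes of Mcm2 to Mcm7 had it, Mcm2 among them. CCAAT is short, and 37.4% of all windows hold it.

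Pole, Lig1 and Mcm2 did not overlap between groups in TPM, and each did after median-of-ratios scaling, with WT replicate 2, the library with the lowest size factor, inside or above the db/db range. Tyms-ps, a listed copy of Tyms, was at 0 to 0.19 TPM in the 6 libraries.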
